A study of Mus musculus with 6 samples.

Results

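This account covers mouse imprinted genes, taken by gene name from a list of 35 and grouped by imprinted locus and by the parental allele that is known to be expressed. The deposited table held 33 of the 35 among its 15711 genes; Phlda2 and Usp29 had no row. The list names no threshold, but it was drawn up with results of these libraries known, among them the low H19 and Igf2 of the labelled-positive libraries. The differences of its members are therefore descriptions: calls are counted, and no adjusted p is printed for a member. The other gene lists below were also chosen with earlier results known, and no adjusted p is printed for their genes.

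An imprinted gene is read mainly from the copy inherited from one parent, a choice that in most cases goes back to DNA methylation set in the egg or sperm. Imprinted genes lie in clusters, and a control region in each cluster sets which genes are read from the maternal and which from the paternal chromosome. Many of them act on growth before birth, and in mouse many are turned down in most tissues after birth. The table gives total RNA per gene and does not separate the parental copies, so nothing here measures imprinting itself.

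The series compared cultured tendon stem/progenitor cells of mice with a Col1α1-Cre;YFP genotype, in which a collagen I promoter drives Cre and YFP marks the cells; the genotype label carries a different number after the α in each sample. Cells sorted as Col1α1+Vldlr+ (3 libraries) were set against cells sorted as Col1α1+Vldlr- (3 libraries), Vldlr being the very low density lipoprotein receptor. All cells were kept after sorting in DMEM with 20% fetal bovine serum, and no other treatment is labelled. The labels give no age, sex, strain or number of animals. They do not say whether replicates are separate cultures or animals. The p-values behind the calls below therefore cover the spread among these libraries alone, and that spread may be technical. The Col1a1 promoter is active in many connective tissue cells besides those of tendon.

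The libraries held 17280540 to 17719560 reads, worked out from the table's RPKM values (reads scaled to exon length and to a library size). The library sizes that the values imply were not these read totals. They were 16448814 to 16598083 in labelled-positive and 18618105 to 18627629 in labelled-negative libraries. Calls with scaling to total reads in their place are given in the closing section. Labelled-positive replicate 1 stood apart from the other two of its group, with a chi-square per gene of 13.8 and 11.9 against them, where the other replicate pairs had 2.27 to 5.07. Vldlr could not check the labels: its values in the labelled-negative libraries were the only ones of 15691 genes with a known exon length that were not whole reads. Genes of the Y chromosome also went with the label. The Y-linked genes Ddx3y, Kdm5d, Uty and Eif2s3y summed to 0.0248 to 0.0445 RPKM in the labelled-positive libraries and to 16.8 to 20.1 RPKM in the labelled-negative ones. Xist, the RNA of the inactive X chromosome in female cells, was at 18.8 to 36.6 RPKM in the labelled-positive and 28.4 to 34.3 RPKM in the labelled-negative libraries. For every gene below, the animals behind the groups and the sort itself cannot be told apart.

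Marker lists of other cell types moved with the label as well. Of all 12116 genes tested as described below, 26.1% were called lower and 29.7% higher. A marker near 0 in one group could enter the test only through the group where it was high, and then had to differ. All 11 tested of 12 macrophage markers were lower in the labelled-positive libraries, where the list summed to 28.0 to 35.8 RPKM, against 575.9 to 699.2 RPKM in the labelled-negative libraries; Tyrobp had no read in any labelled-positive library. All 3 adipocyte markers found, of 5 listed, were lower, at 3.27 to 4.70 RPKM summed in the labelled-positive and 30.2 to 33.4 RPKM in the labelled-negative libraries. Endothelial markers (8 genes; 5 of 6 tested higher) summed to 32.3 to 34.4 RPKM in the labelled-positive and 19.7 to 20.3 RPKM in the labelled-negative libraries, in which Cdh5 and Tie1 had no read. Schwann cell markers (7 genes; 4 of 5 tested higher) summed to 99.4 to 108.8 RPKM in the labelled-positive and 20.3 to 21.996 RPKM in the labelled-negative libraries. Of 8 skeletal muscle markers only Des and Acta1 had a row, summing to 1.03 to 1.47 RPKM in labelled-positive and 1.15 to 1.54 RPKM in labelled-negative libraries. All 7 tendon cell markers were present in both groups, 5 called higher (Scx, Mkx, Fmod, Comp and Thbs4) and 2 lower (Tnmd and Kera), with a median log2 fold change of 0.46, at 6475 to 7086 RPKM summed in the labelled-positive and 769 to 792.9 RPKM in the labelled-negative libraries. Fibroblast markers (8 genes, 6 higher and 2 lower) summed to 7224 to 7726 and pericyte and smooth muscle markers (6 genes, 3 higher and 2 lower) to 693.3 to 786.3 RPKM in the labelled-positive libraries, against 4848 to 5077 and 213.1 to 245.7 RPKM in the labelled-negative libraries. The part of these cells, and of sex, in the imprinted gene results was not tested, and in bulk RNA fewer cells of a type and less RNA per cell cannot be told apart.

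**Figure D1:**
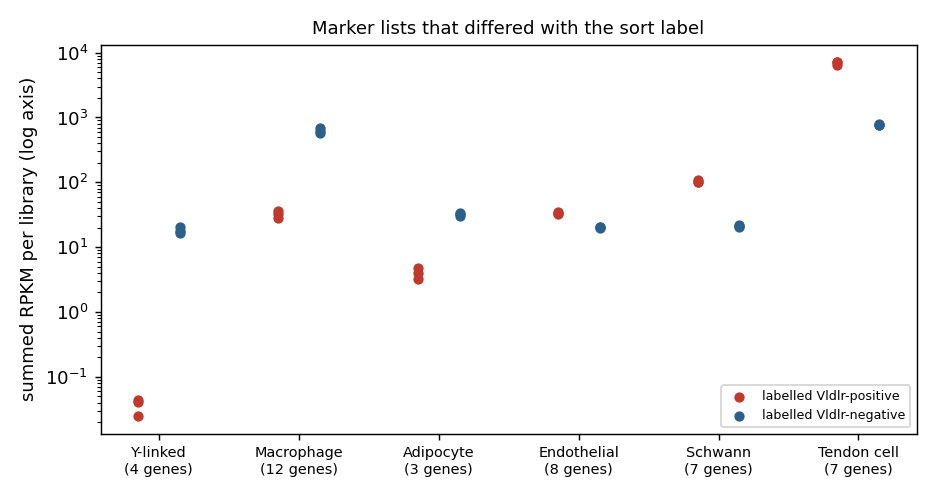
Summed RPKM (log axis) of Y-linked genes and of 5 cell type marker lists, with a point for each library, labelled-positive left of labelled-negative. The Y-linked sum is under 0.05 RPKM in the 3 labelled-positive libraries and over 16 RPKM in the 3 labelled-negative ones.

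The imprinted genes were low in the labelled-positive libraries at some loci and little different at others. Of the 33 genes, 28 had all 3 labelled-positive libraries below all 3 labelled-negative ones, where 31.0% of all genes in the table did. Sgce alone lay above, where 29.7% of all genes did, and Slc22a18, Snrpn, Gnas and Commd1 overlapped. Of the members, 14 were at least 2-fold lower by mean RPKM, where 10.6% of all genes were, and these sat in 9 of the 18 loci. At Peg10-Sgce, Nnat-Blcap, Nap1l5 and Slc38a4 the only such member had a mean under 1 RPKM in both groups. The members took 0.185% to 0.196% of the reads in labelled-positive libraries and 0.468% to 0.478% in labelled-negative ones, and H19 alone made up 0.436% to 0.584% of the member reads in labelled-positive and 27.0% to 29.4% in labelled-negative libraries. Without H19 the members summed to 327.8 to 338.5 RPKM in labelled-positive and 491.6 to 501.3 RPKM in labelled-negative libraries.

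Differences across all genes were tested with limma on log2(RPKM + 1), keeping genes that reached 1 RPKM in 3 or more libraries, and a gene was called at a Benjamini-Hochberg adjusted p under 0.05. Fold changes on this scale understate those of genes with few reads. 25 members passed the filter, but Igf2, Zim1 and Dlk1 passed only through the labelled-negative libraries and so had to differ. 18 of the 25 were called lower and 0 higher, beside 26.1% and 29.7% of the 12116 genes tested. For the count of 0, Sgce and Commd1 were higher at an unadjusted p under 0.05, limma voom on reads called 1 (Sgce; 19 were lower, beside 27.0% and 29.6% of all genes lower and higher), and 2 (both) were called without labelled-positive replicate 1. Against a 1.5-fold change, 7 members were called lower (H19, Igf2, Cdkn1c, Plagl1, Peg3, Zim1 and Dlk1) and 0 higher, beside 5.0% and 4.43% of all genes; voom called 8 lower and 0 higher, beside 6.58% and 5.88%. With no filter, 26 of the 33 were called lower and 0 higher, beside 26.5% and 25.7% of all genes. The median log2 fold change of the 25 was -0.46, and that of all genes tested 0.02. Because the list was made with this contrast known, nothing is read from these counts.

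**Figure D2:**
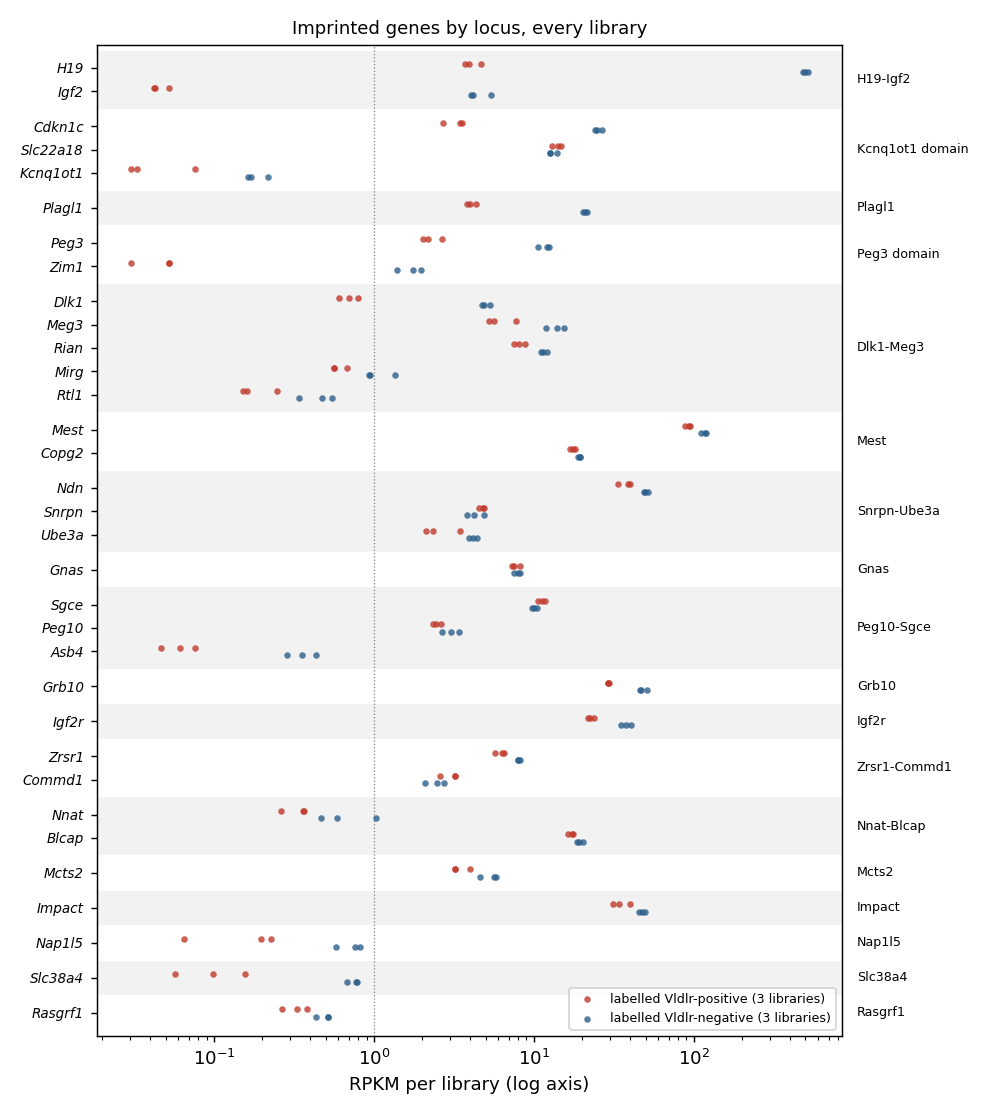
RPKM (log axis) of the 33 imprinted genes in each of the 6 libraries, by locus, with labelled-positive points just above labelled-negative ones in each row; the dotted line is 1 RPKM. H19 lies near 4 RPKM in the labelled-positive libraries and near 500 RPKM in the labelled-negative ones, and Gnas and Slc22a18 overlap.

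The H19-Igf2 locus showed the widest gap of the 18, and its genes, read from opposite parental copies, were low together. H19 (chromosome 7, 142575529 to 142578143, GRCm38, GENCODE M21 annotation, minus strand) is a long non-coding RNA read from the maternal copy, and Igf2 (142650766 to 142666816) encodes a fetal growth factor read from the paternal copy. The methylated control region between H19 and Igf2 decides which of them can use shared enhancers. H19 was at 3.73, 4.68 and 3.92 RPKM in labelled-positive replicates 1 to 3, against 480.1, 499.6 and 518.8 RPKM in labelled-negative replicates 1 to 3. That was 121.5-fold lower, with no overlap. Igf2 was at 0.0425, 0.0526 and 0.0421 RPKM in labelled-positive and 4.02, 5.38 and 4.19 RPKM in labelled-negative libraries. Its labelled-positive values rest on 4, 5 and 4 reads, against 429, 573 and 447 reads in labelled-negative libraries, a ratio of 99.0 with an exact 95% interval of 57.7 to 187 for counting error. Per kilobase, H19 was thus far above Igf2 in both groups.

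An exon of H19 also holds the hairpin of miR-675, a microRNA cut from the H19 transcript. Its mature forms are shown (RefSeq, GRCm38.p6, chromosome 7, minus strand) because reads on H19 include this stretch; the microRNAs themselves were not measured. Capitals mark the seed, bases 2 to 8 from the 5′ end, and the seeds differ between the arms.
mmu-miR-675-5p: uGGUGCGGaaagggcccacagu
mmu-miR-675-3p: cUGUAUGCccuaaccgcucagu

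At the Kcnq1ot1 domain, further along chromosome 7, neighbours did not move alike. Cdkn1c (143458339 to 143461050) encodes the cyclin-dependent kinase inhibitor p57 and is read from the maternal copy. It was at 2.71, 3.55 and 3.46 RPKM in labelled-positive and 24.3, 24.9 and 26.7 RPKM in labelled-negative libraries, 7.81-fold lower. Slc22a18, a maternal membrane transporter gene and the next member along, was at 12.9 to 14.8 RPKM in labelled-positive and 12.7 to 13.97 RPKM in labelled-negative libraries, and the groups overlapped. Kcnq1ot1, the long paternal RNA that silences the domain, was at 0.0758, 0.0330 and 0.0304 RPKM in labelled-positive and 0.218, 0.171 and 0.163 RPKM in labelled-negative libraries. It was under 1 RPKM in every library, and it overlaps exons of Kcnq1 on the other strand, so its reads cannot be assigned without strand.

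Plagl1, a zinc finger transcription factor gene known in mouse to act on other imprinted genes, is read from the paternal copy. Plagl1 is the only listed member of its locus (chromosome 10, 13060504 to 13131694). It was at 4.34, 3.98 and 3.83 RPKM in labelled-positive and 21.5, 20.9 and 20.2 RPKM in labelled-negative libraries, 5.15-fold lower (log2 fold change -2.12, SE 0.06). The groups lay far apart and did not overlap.

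The Peg3 domain at the other end of chromosome 7 was low in both parental directions. Peg3 (6703892 to 6730431), a paternal gene for a large zinc finger protein, was at 2.65, 2.18 and 2.03 RPKM in labelled-positive and 12.1, 12.4 and 10.6 RPKM in labelled-negative libraries, 5.12-fold lower. Zim1 (6671269 to 6696450), a maternal zinc finger gene next to Peg3, was at 0.0301, 0.0522 and 0.0522 RPKM in labelled-positive and 1.97, 1.75 and 1.39 RPKM in labelled-negative libraries. Zim1 had 18 reads over the labelled-positive libraries and 769 over the labelled-negative ones, a ratio of 38.0 with an exact 95% interval of 23.9 to 64.4 for counting error.

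The Dlk1-Meg3 cluster (chromosome 12) had 5 members, all lower in every labelled-positive library than in any labelled-negative one, by 1.42-fold to 7.14-fold. Dlk1 (109452823 to 109463336), a paternal gene for a membrane protein of the Notch ligand family that holds back fat cell formation, was at 0.602, 0.799 and 0.703 RPKM in labelled-positive and 4.92, 4.78 and 5.33 RPKM in labelled-negative libraries, 7.14-fold lower. The maternal long non-coding RNA Meg3 (109541001 to 109571726) was at 7.76, 5.65 and 5.25 RPKM in labelled-positive and 15.5, 14.1 and 11.9 RPKM in labelled-negative libraries, 2.22-fold lower, with labelled-positive replicate 1 the highest of its group. Rian, the maternal snoRNA host further on, was called lower by 1.42-fold, at 8.13 ± 0.641 RPKM in labelled-positive and 11.5 ± 0.482 RPKM in labelled-negative libraries (SD, n = 3 each). Mirg, a maternal microRNA host, was at 0.562 to 0.675 and 0.928 to 1.36 RPKM in the labelled-positive and labelled-negative libraries. Rtl1, a paternal gene derived from a retrotransposon, was at 0.152 to 0.249 RPKM in labelled-positive and 0.338 to 0.549 RPKM in labelled-negative libraries. Rtl1 lies opposite the microRNA precursors of the maternal strand and its reads cannot be assigned without strand.

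A pair of maternal genes that restrain growth signals differed less. Grb10, a maternal adaptor that dampens insulin and IGF receptor signals, was at 29.5, 29.2 and 29.0 RPKM in labelled-positive and 46.0, 51.1 and 47.2 RPKM in labelled-negative libraries, 1.65-fold lower. Igf2r (chromosome 17, 12682406 to 12769664), the maternal receptor that removes IGF2 from the cell surface, was at 24.0, 21.7 and 22.4 RPKM in labelled-positive and 37.6, 40.7 and 35.1 RPKM in labelled-negative libraries, 1.67-fold lower. Both were called lower with no overlap, and neither passed the test against a 1.5-fold change.

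At the Mest locus, Mest, a paternal gene for a hydrolase-like protein of the endoplasmic reticulum, had the highest level of all members in the labelled-positive libraries. It was at 94.3, 88.4 and 93.5 RPKM there and at 118.5, 111.5 and 118.8 RPKM in labelled-negative libraries, called lower by 1.26-fold. Copg2, a coatomer gene whose exons overlap Mest on the other strand, was at 16.9 to 18.2 RPKM in labelled-positive and 18.8 to 19.5 RPKM in labelled-negative libraries and was not called; it was called lower without labelled-positive replicate 1. Necdin (Ndn), a paternal MAGE-family gene of the Snrpn-Ube3a domain, was called lower by 1.34-fold, at 33.4 to 39.8 and 49.0 to 52.0 RPKM in labelled-positive and labelled-negative libraries. In the same domain Ube3a, a ubiquitin ligase gene imprinted in neurons, was called lower at 2.13 to 3.47 RPKM in labelled-positive and 3.95 to 4.39 RPKM in labelled-negative libraries. Exons of Ube3a overlap Snhg14 on the other strand, so its reads cannot be assigned without strand. Snrpn, the spliceosomal gene of that domain, overlapped between the groups at 4.73 ± 0.172 RPKM in labelled-positive and 4.32 ± 0.550 RPKM in labelled-negative libraries (SD, n = 3 each).

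At the Peg10-Sgce locus the paternal pair, which share a divergent promoter, did not move with the large falls. Sgce, which encodes epsilon-sarcoglycan, was at 10.7, 11.7 and 11.3 RPKM in labelled-positive and 9.79, 10.05 and 10.4 RPKM in labelled-negative libraries. Peg10, a retrotransposon-derived gene, was at 2.43, 2.63 and 2.33 RPKM in labelled-positive and 3.04, 3.41 and 2.66 RPKM in labelled-negative libraries. Neither was called by limma, though voom called Sgce higher and Peg10 lower; Sgce was called higher without labelled-positive replicate 1, and its sign turned with total-read scaling (log2 fold change -0.04). The maternal Asb4 had 12 reads over the labelled-positive and 79 over the labelled-negative libraries.

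At the Zrsr1-Commd1, Mcts2 and Nnat-Blcap loci a paternal gene sits inside another gene, and its level was set beside that of its host. Zrsr1, a splicing factor copy inside Commd1, was called lower at 5.69 to 6.52 and 7.98 to 8.26 RPKM in labelled-positive and labelled-negative libraries, whereas Commd1 itself was at 2.59 to 3.23 RPKM in labelled-positive and 2.08 to 2.75 RPKM in labelled-negative libraries and was not called, though it was called higher without labelled-positive replicate 1. Mcts2, a translation factor copy inside H13, was called lower by 1.54-fold at 3.20, 3.24 and 3.96 RPKM in labelled-positive and 4.59, 5.77 and 5.65 RPKM in labelled-negative libraries. Its host H13, a signal peptide peptidase gene, went the other way, at 40.8 ± 2.26 RPKM in labelled-positive and 18.9 ± 0.355 RPKM in labelled-negative libraries (SD, n = 3 each). Mcts2 and Zrsr1 have similar parent genes elsewhere, so their reads are uncertain. Those parents, outside the naming rule, were Mcts1, at 24.9 RPKM in labelled-positive and 19.1 RPKM in labelled-negative libraries, and Zrsr2, at 4.82 and 4.86 RPKM. The part of parent reads in the Mcts2 and Zrsr1 values was not tested. Nnat, inside Blcap, had 30 reads over the labelled-positive and 71 over the labelled-negative libraries. Blcap was called lower by only 1.13-fold, a call that was lost without labelled-positive replicate 3, labelled-negative replicate 1 or labelled-negative replicate 2.

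Slc38a4, Nap1l5 and Rasgrf1, each the only listed member of its locus, had few reads and lay lower without overlap. Slc38a4, a paternal amino acid transporter gene, was at 0.0571, 0.0990 and 0.156 RPKM in labelled-positive and 0.769, 0.681 and 0.781 RPKM in labelled-negative libraries, a read ratio of 7.15 with an exact 95% counting interval of 4.58 to 11.7. Nap1l5, a nucleosome assembly retrogene, had 6, 7 and 2 reads in labelled-positive and 20, 26 and 28 reads in labelled-negative libraries. Rasgrf1, a Ras exchange factor gene, was at 0.267 to 0.381 RPKM in labelled-positive and 0.437 to 0.519 RPKM in labelled-negative libraries. Among higher genes, Impact, a translation regulator gene on chromosome 18, was called lower by 1.36-fold at 31.1 to 40.1 RPKM in labelled-positive and 45.6 to 49.3 RPKM in labelled-negative libraries. Gnas, which encodes the stimulatory G protein subunit, was at 7.35 to 8.21 RPKM in labelled-positive and 7.49 to 8.19 RPKM in labelled-negative libraries and was not called. The Gnas value counts 19 exon blocks together, which overlap Nespas on the other strand, so single transcripts of the locus cannot be told apart.

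**Figure D3:**
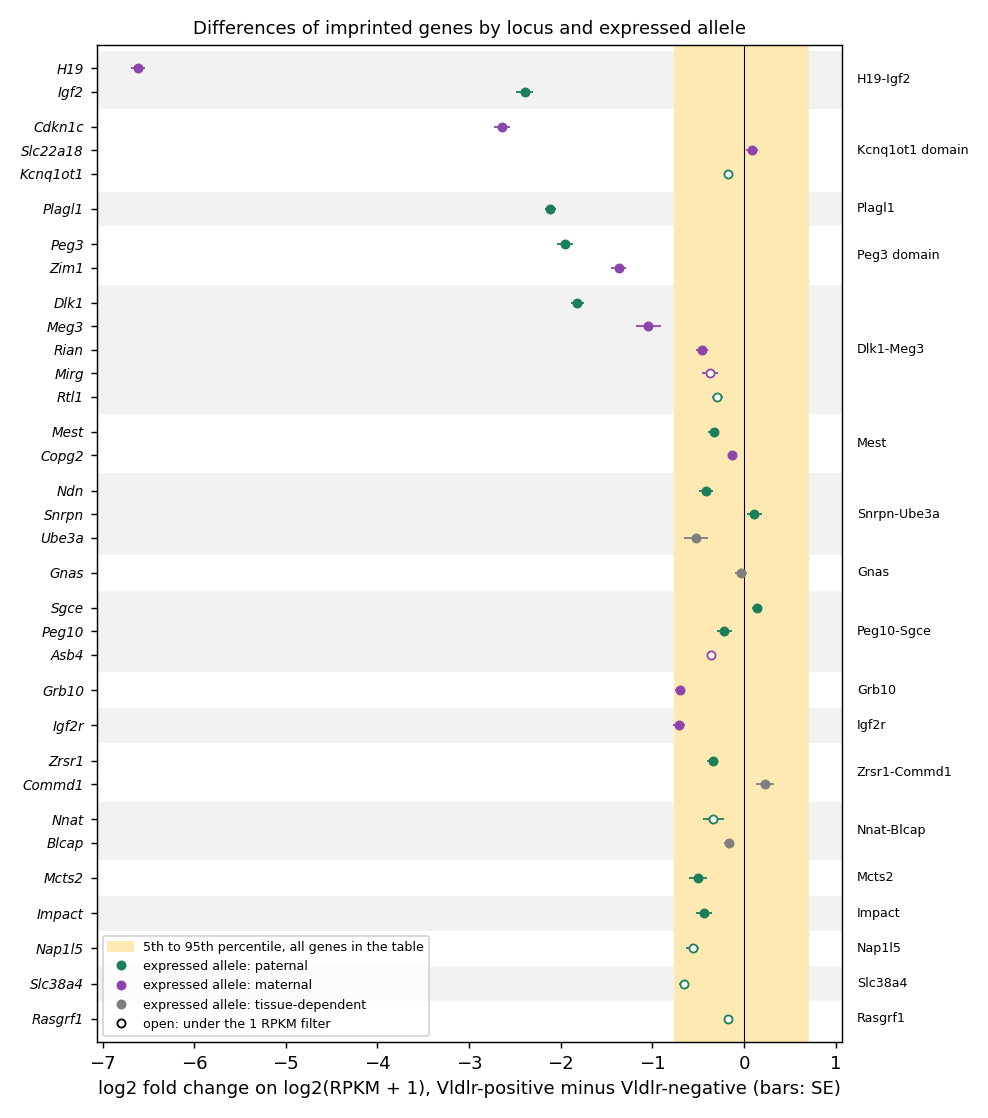
Log2 fold change on log2(RPKM + 1), labelled-positive minus labelled-negative, with standard error, for the 33 imprinted genes by locus, from the fit with no filter; colours give the expressed allele, open points are under the 1 RPKM filter, and the band is the 5th to 95th percentile of all genes (-0.76 to 0.70). H19, Igf2, Cdkn1c, Plagl1, Peg3, Zim1, Dlk1 and Meg3 lie left of the band.

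Both parental classes held members that were much lower. At least 2-fold lower were 9 of the 18 paternal genes with a row and 5 of the 11 maternal genes, where 10.6% of all genes were. Of the 4 genes whose imprinting depends on tissue (Ube3a, Gnas, Commd1 and Blcap), 0 were. Among those counted, the paternal Kcnq1ot1, Rtl1, Nnat, Nap1l5 and Slc38a4 and the maternal Asb4 were under the 1 RPKM filter. The paternal genes summed to 196.2 to 204.1 RPKM in labelled-positive and 287.7 to 291.5 RPKM in labelled-negative libraries. The maternal genes without H19 summed to 100.1 to 104.6 RPKM in labelled-positive and 166.7 to 178.7 RPKM in labelled-negative libraries.

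Genes near these loci that are on neither imprinted list had differences centred near 0. Within 500 kb of the members, 104 other genes were tested, with a median log2 fold change of 0.06; 32 were called higher and 19 lower, beside 29.7% and 26.1% of all genes. On the log2 scale 5 were past 2-fold higher (Col1a2, Samhd1, Foxs1, Tpx2 and Gprin3) and 1 past 2-fold lower, where 412 and 474 of all 12116 genes were. These genes are named after their values were seen. The lower one was Amigo2 beside Slc38a4; its log2 fold change was -2.44, and all 4 genes tested around Slc38a4 were called lower. Around Impact, itself at -0.44, the 3 genes tested ran from -0.89 to 0.23 with a median of -0.75, 2 called lower and 1 higher. Around H19 and Igf2 the 7 other genes had log2 fold changes from -0.51 to 0.61, and around Plagl1 the 7 genes ran from -0.15 to 0.56.

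**Figure D4:**
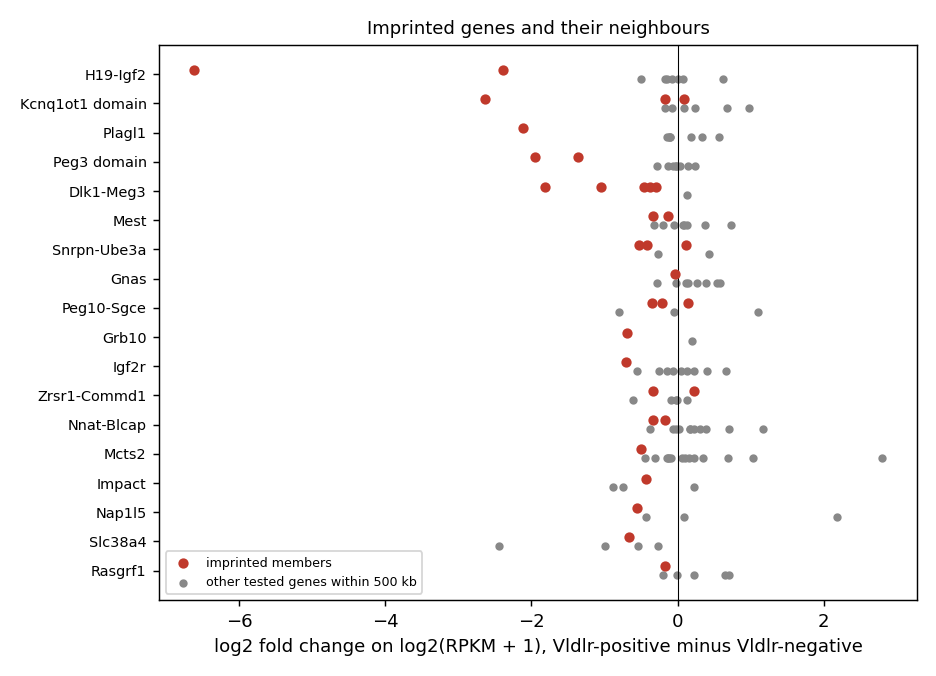
Log2 fold change on log2(RPKM + 1), labelled-positive minus labelled-negative, of imprinted members (upper row of each locus, fit with no filter) and of other tested genes within 500 kb (lower row). Around H19-Igf2, Plagl1 and Peg3 the members lie left of every neighbour. Around Slc38a4 the neighbours Amigo2 (-2.44) and Pced1b (-0.99) lie further left on this scale than the member (-0.66). The scale understates differences of genes with few reads, and Slc38a4, under 1 RPKM in every library, was 7.16-fold lower by mean RPKM.

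The promoters of members that carry maternal methylation in the egg are shown for 5 genes, with the hexamer TGCCGC in capitals on either strand. By mean RPKM the 5 genes span large (Plagl1, Peg3, Nap1l5) and small (Mest, Mcts2) differences. The 4.38-fold difference of Nap1l5 rests on 15 reads over the labelled-positive and 74 over the labelled-negative libraries. TGCCGC is the methylated core read by ZFP57, a zinc finger protein that keeps imprints with its partner TRIM28. Each window is the 250 bases before a RefSeq start on GRCm38.p6, given 5′ to 3′ along the gene.
Plagl1, chr10:13090582-13090831, + strand: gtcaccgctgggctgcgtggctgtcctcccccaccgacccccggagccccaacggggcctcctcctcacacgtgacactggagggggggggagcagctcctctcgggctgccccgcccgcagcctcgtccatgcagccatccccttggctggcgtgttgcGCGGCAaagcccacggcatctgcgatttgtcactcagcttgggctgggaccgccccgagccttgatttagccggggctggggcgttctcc
Nap1l5, chr6:58907127-58907376, - strand: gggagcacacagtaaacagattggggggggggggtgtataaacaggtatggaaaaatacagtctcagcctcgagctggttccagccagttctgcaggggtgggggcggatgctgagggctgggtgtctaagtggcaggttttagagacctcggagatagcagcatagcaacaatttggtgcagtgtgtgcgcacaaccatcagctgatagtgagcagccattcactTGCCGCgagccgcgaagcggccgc
Peg3, chr7:6730420-6730669, - strand: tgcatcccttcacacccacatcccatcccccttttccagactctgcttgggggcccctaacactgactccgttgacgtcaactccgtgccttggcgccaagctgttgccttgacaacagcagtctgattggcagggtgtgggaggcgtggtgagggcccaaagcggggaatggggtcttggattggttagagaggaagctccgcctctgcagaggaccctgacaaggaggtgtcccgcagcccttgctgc
Mest, chr6:30737800-30738049, + strand: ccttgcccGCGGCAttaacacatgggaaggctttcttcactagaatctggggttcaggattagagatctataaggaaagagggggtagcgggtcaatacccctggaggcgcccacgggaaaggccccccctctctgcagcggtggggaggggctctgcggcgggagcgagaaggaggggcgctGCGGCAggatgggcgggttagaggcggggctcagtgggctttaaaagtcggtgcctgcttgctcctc
Mcts2, chr2:152686898-152687147, + strand: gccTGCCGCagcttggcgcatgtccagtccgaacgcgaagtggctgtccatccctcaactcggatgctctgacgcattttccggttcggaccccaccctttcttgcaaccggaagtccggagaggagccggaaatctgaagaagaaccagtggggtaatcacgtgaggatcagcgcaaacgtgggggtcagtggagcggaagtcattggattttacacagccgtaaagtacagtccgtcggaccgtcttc
RefSeq promoters were found for 29 of the 35 listed genes (Phlda2 and Usp29 among them), and TGCCGC on either strand stood in at least 1 window of 7 of them (24.1%), against 9.84% of 27025 genes. By the marking of the promoter it was in 4 of 11 members with maternal germline methylation there (Plagl1, Nap1l5, Mest and Mcts2) and in 3 of 18 others (Copg2, Zim1 and Meg3). Mest had 2 matches in its window and a 1.26-fold difference, and Plagl1 had 1 match and a 5.15-fold difference. No window was found for H19, Cdkn1c, Sgce, Peg10, Rtl1 and Impact. A match describes the letters only. Bases outside these windows were not searched, so a window without a match says nothing of the rest of a locus.

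Factors that set or keep imprints had members called in each direction. Of 30 listed, 23 were tested, with 11 called lower and 5 higher, beside 26.1% and 29.7% of all genes, and a median log2 fold change of -0.21, against 0.02 for all genes; the lower count was 13 without labelled-positive replicate 1, 6 without labelled-positive replicate 2 or labelled-negative replicate 1, and 7 without labelled-positive replicate 3 or labelled-negative replicate 2. Uhrf1, which brings the maintenance methyltransferase to new DNA, rose 2.65-fold to 2.67 ± 0.0306 RPKM in labelled-positive libraries, against 1.01 ± 0.0871 RPKM in labelled-negative ones; only 1 labelled-negative library reached the 1 RPKM of the filter. The de novo methyltransferase gene Dnmt3a was called lower, at 1.32 ± 0.0932 RPKM in labelled-positive and 3.38 ± 0.426 RPKM in labelled-negative libraries. The demethylation enzyme gene Tet3 was called lower, at 1.22 ± 0.165 and 2.40 ± 0.245 RPKM in labelled-positive and labelled-negative libraries. The chromatin gene Mbd3 was called higher, at 48.4 ± 2.30 RPKM in labelled-positive and 36.9 ± 0.320 RPKM in labelled-negative libraries (SD, n = 3 each for these genes). Zfp57, which passed the filter only through the labelled-negative libraries, and Trim28, both named for the motif above and outside the naming rule, were at 0.820 and 46.2 RPKM in labelled-positive and 1.31 and 38.2 RPKM in labelled-negative libraries.

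Other genes imprinted in mouse were called about as often in each direction. Of 53 listed, 41 had a row and 31 were tested, with 11 called lower, 10 higher and 10 not called and a median log2 fold change of -0.06. Among all genes 26.1% were called lower and 29.7% higher. Airn and Cobl passed the filter only through the labelled-negative libraries, and Tfpi2 and Dlx5 only through the labelled-positive ones. Besides H13, the 4 with the lowest adjusted p included Pon3, a paraoxonase gene near Peg10. Pon3 was at 21.5 ± 0.642 RPKM in labelled-positive and 12.6 ± 0.411 RPKM in labelled-negative libraries. Cobl, an actin nucleator gene beside Grb10, was at 0.544 ± 0.0409 RPKM in labelled-positive and 2.19 ± 0.0861 RPKM in labelled-negative libraries; it passed the filter only through the labelled-negative libraries and so had to differ. Jade1, a chromatin gene, was at 1.72 ± 0.222 RPKM in labelled-positive and 4.65 ± 0.132 RPKM in labelled-negative libraries (SD, n = 3 each). Neighbours of members named after their values were seen were Airn, the RNA that silences Igf2r on the paternal copy, at 0.566 RPKM in labelled-positive and 1.30 RPKM in labelled-negative libraries, and Dio3, at the far end of the Dlk1-Meg3 cluster, at 4.75 RPKM in labelled-positive and 6.27 RPKM in labelled-negative libraries.

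Genes that act with Igf2 and H19 were on a list also chosen with earlier results known. Of 15 listed, 12 were tested, with 9 called lower and 1, the RNA-binding protein gene Elavl1, called higher, beside 26.1% and 29.7% of all genes; voom called 2 higher. Gpc3, a glypican that limits growth, was at 0.218 ± 0.114 RPKM in labelled-positive and 56.6 ± 2.43 RPKM in labelled-negative libraries. The fetal RNA-binding protein gene Igf2bp3 was at 0.0791 ± 0.0355 RPKM in labelled-positive and 1.70 ± 0.0578 RPKM in labelled-negative libraries. Both passed the filter only through the labelled-negative libraries and so had to differ. Igf2bp2, a relative of Igf2bp3, was at 3.60 ± 0.0975 RPKM in labelled-positive and 6.85 ± 0.378 RPKM in labelled-negative libraries. The chromatin gene Hmga2 was at 3.43 ± 0.1995 RPKM in labelled-positive and 6.24 ± 0.199 RPKM in labelled-negative libraries (SD, n = 3 each for these genes). Igf2bp1, under the filter and outside the naming rule, had 23 reads over the labelled-positive and 539 over the labelled-negative libraries.

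Among the labelled-positive libraries, replicate 1 differed from the other two by exon length. Its RPKM over the mean of replicates 2 and 3 had a median of 0.895 for tested genes with under 2 kb of exon and of 1.16 for those with 10 kb or more. Kcnq1ot1 had the highest ratio of the members, 2.39, followed by Rtl1 at 1.59, Ube3a at 1.56 and Meg3 at 1.42. Slc38a4 had the lowest, 0.448, then Zim1 at 0.577 and Asb4 at 0.673, all on few reads. In labelled-positive replicates 1 to 3 Slc38a4 had 4, 7 and 11 reads, Zim1 4, 7 and 7, and Asb4 3, 5 and 4. Zim1, with 8086 bases of exon, and Nap1l5, at 1.35 with 1844 bases and few reads, went against the length trend. Cdkn1c was at 0.775 and H19 at 0.868. Without replicate 1, Kcnq1ot1 was 5.80-fold lower in place of 3.96-fold, Meg3 2.53-fold in place of 2.22-fold and Cdkn1c 7.23-fold in place of 7.81-fold. The part of RNA length in these differences was not tested.

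**Figure D5:**
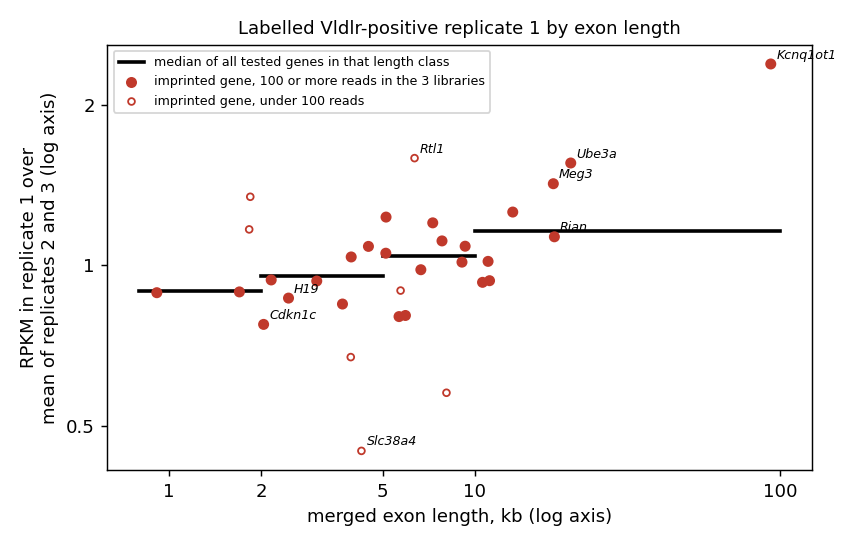
Ratio of RPKM in labelled-positive replicate 1 to the mean of replicates 2 and 3 (log axis) against merged exon length in kb (log axis) for the imprinted genes, with open points for those under 100 reads in the 3 libraries; bars are the medians of all tested genes in 4 length classes. Kcnq1ot1 lies highest at 2.39, above the median of 1.16 for exons of 10 kb or more.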

How the data were processed

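RNA from 6 libraries, 3 per sort group, was measured by sequencing. The authors deposited RPKM values; the unit is not named in the file and was worked out from the values. The submitters' processing notes name mm10, bcl2fastq 1.8.4 and Cell Ranger without saying what each did. How reads were aligned and counted, and whether by strand, is not given in the sources. RPKM times merged exon length (GENCODE M21) gave whole reads, within 0.01, for 15690 of 15691 genes in all libraries; 20 gene names had turned into dates.

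Genes reaching 1 RPKM in 3 or more libraries entered limma 3.58.1 (R 4.3.3, statmod 1.5.0), with trend and robust set, on log2(RPKM + 1), with the groups as the only term and Benjamini-Hochberg adjustment over all 12116 genes, and again with limma's treat against 1.5-fold. Low members were also fitted without the filter. The fit was tested on simulated counts with the same spread setting for every gene, no outlying replicate and changes placed only in genes above a set level. That test therefore does not cover labelled-positive replicate 1 or members with few reads. Read ratios carry exact binomial 95% intervals (SciPy 1.17.1), which cover counting error only. Alternatives were a pseudocount of 0.1, no filter, a filter at 5 RPKM, total-read and median-ratio scaling, voom on reads, a replicate block and leaving out each library; voom with no filter was added after seeing the data.

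The members and lists were chosen with earlier results of these data known. All members are named; of other lists, up to 4 called genes with the lowest adjusted p. For cell type lists, where the rule also allowed leading genes, summed levels and genes without reads are given. Genes outside that rule are marked.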

Additional observations from a re-analysis of the deposited data

How the results depend on the processing

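Of the 25 imprinted genes tested, every one kept its direction and its call at an adjusted p under 0.05 with a pseudocount of 0.1, no filter and median-ratio scaling, and so did the 17 left by a filter at 5 RPKM. The count past 1.5-fold lower, 7, was 8 with a pseudocount of 0.1, median-ratio scaling, voom or the replicate block, 10 with total-read scaling, 5 with the filter at 5 RPKM and 7 to 8 leaving out each library. Total-read scaling moved all log2 fold changes by a median of -0.17 and turned the signs of Slc22a18 (-0.10), Snrpn (-0.054) and Sgce (-0.042), 3 genes that were not called either way; it also called Copg2, Gnas and Peg10 lower. With it 5547 of all genes were lower and 1875 higher, against 3167 and 3602; 5 other imprinted genes, 2 regulators and 0 genes of the Igf2 list were then called higher, against 10, 5 and 1. A filter at 5 RPKM left 1800 of all genes called lower (340 against 1.5-fold, in place of 606), 4 other imprinted genes and 4 regulators, with fewer genes tested. Voom called 1 imprinted gene and 2 of the Igf2 list higher. The labels do not say whether same-numbered libraries of the 2 groups are paired. Their deviations from the group means had correlations of 0.30, -0.06 and 0.31, which are too few to settle it. The replicate block gave 1 imprinted gene called higher, Commd1, and 2 of the Igf2 list, and called Peg10 lower. Leaving out each library in turn gave 0 to 2 imprinted genes called higher, 6 to 13 regulators lower and 1 to 2 genes of the Igf2 list higher. The causes were not tested. Depth limits Igf2, Zim1, Asb4, Nap1l5, Slc38a4 and Nnat, which had 30 reads or fewer over the labelled-positive libraries.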
